A study of Mus musculus with 6 samples.

Results

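The transcripts of 9 genes were followed in RAW264.7 cells, a mouse macrophage cell line, with and without knockdown of Trem2. The genes were 4 matrix metalloproteinases (Mmp12, Mmp13, Mmp14 and Mmp19), 2 tissue inhibitors of metalloproteinases (Timp1 and Timp2) and 3 membrane-anchored proteases (Adam8, Adam10 and Adam17). They were matched by symbol among the 56092 gene symbols of the deposited tables, and all 9 were found. The shTrem2 cells stably carried a lentiviral short hairpin RNA against Trem2 together with GFP, and the shNC cells a non-targeting hairpin. The methods give 2 Trem2 hairpins, and which of them was sequenced is not given in the sources used here. All cells of both groups had been exposed to IL-4 at 20 ng/mL for 24 h and then to freeze-thaw debris of TCMK-1 cells, a mouse renal tubular line, for 24 h, so no library represents resting or debris-free cells. Each group had 3 libraries. Nothing in the labels says that these came from separate cultures, and the p-values measure the spread between these libraries, which may be technical.

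Matrix metalloproteinases are zinc-dependent endopeptidases that cut collagens, elastin and other components of the extracellular matrix, and TIMPs bind their active sites and block them. ADAM proteases are transmembrane relatives that release the ectodomains of surface proteins. ADAM10 and ADAM17 cut TREM2 close to the membrane and release soluble TREM2, and the stub left behind is cut by gamma-secretase. In kidney, macrophage metalloproteinases are known for their part in matrix turnover after injury. RNA was measured here, and protein, protease activity and soluble TREM2 were not analysed.

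Sequencing depth was between 16054486 and 18290532 estimated counts per library in shNC and between 19545744 and 19835186 in shTrem2. Levels within a gene are given as CPM, the count scaled to the named counts of the library, and levels between genes as FPKM, which also divides by transcript length. The floor, the level that a count of 0 cannot exclude, was set at 3 counts, between 0.153 and 0.189 CPM in these libraries, and covers counting error only. In bulk RNA, fewer cells of a kind and less RNA per cell cannot be told apart. The targeted gene was lower in the libraries labelled shTrem2. Trem2 was at 116, 124 and 145 CPM in shNC and at 63.8, 62.5 and 79.2 CPM in shTrem2, without overlap. Its log2 fold change was -0.87 (SE 0.094, adjusted p = 3.39e-06, Benjamini-Hochberg adjusted over all genes, edgeR's quasi-likelihood test), and on the protein-coding Trem2 transcripts alone it was -2.08. The other Trem2 transcripts together went from 40.4 ± 7.41 to 48.3 ± 5.91 CPM (SD, n = 3), but they moved in opposite directions. Among them the retained-intron transcript Trem2-203 went from 29.0 to 47.4 CPM without overlap and held 69.2% of the Trem2 counts in shTrem2. Trem2-204 fell from 11.4 to 0.954 CPM, also without overlap. Of 9 macrophage markers 8 were tested and 1, Mertk, stayed at or under 3 counts in every library. The summed level of the list was 5505 to 6444 CPM in shNC and 10361 to 11704 CPM in shTrem2, and its part in the other differences was not tested. Most of that rise was in Lyz2, from 2834 to 7270 CPM, and Csf1r, from 1070 to 1767 CPM, while Itgam was lower (471 to 267 CPM, a DEG), Adgre1 was lower (127 to 84.4 CPM, log2 fold change -0.56) and Cd68 was at 574 and 610 CPM. Of 14 tubular epithelial markers 8, Epcam and Cdh1 among them, had no count in any library, and the highest count of the list in a library was 8, for Lrp2. Of 8 fibroblast markers 6, among them Col1a2 and Col3a1, had no count in any library, and the highest count was 21, for Pdgfrb.

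The ADAM genes held nearly all of the measured RNA of the 9 genes. In shNC the order by FPKM was Adam8 at 302 ± 17.8, Adam10 at 84.6 ± 2.08, Adam17 at 51.7 ± 1.98, Mmp19 at 6.38 ± 0.588, Timp1 at 1.33 ± 0.380, Timp2 at 0.387 ± 0.0643 and Mmp12 at 0.0867 ± 0.0551 (SD, n = 3). Mmp14 followed at 0.05 FPKM and Mmp13 was listed at 0. The order of the means was the same in shTrem2. In shNC only Mmp12 and Mmp14 were neighbours whose library values overlapped, and in shTrem2 only Mmp14 and Mmp13. Adam8, Adam10 and Adam17 together made up 98.2% of the summed FPKM of the 9 genes in shNC and 98.0% in shTrem2. The total of the 9 genes was lower in shTrem2, at 323 ± 13.9 FPKM against 447 ± 14.5 in shNC, and the libraries of the groups did not overlap.

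**Figure D1:**
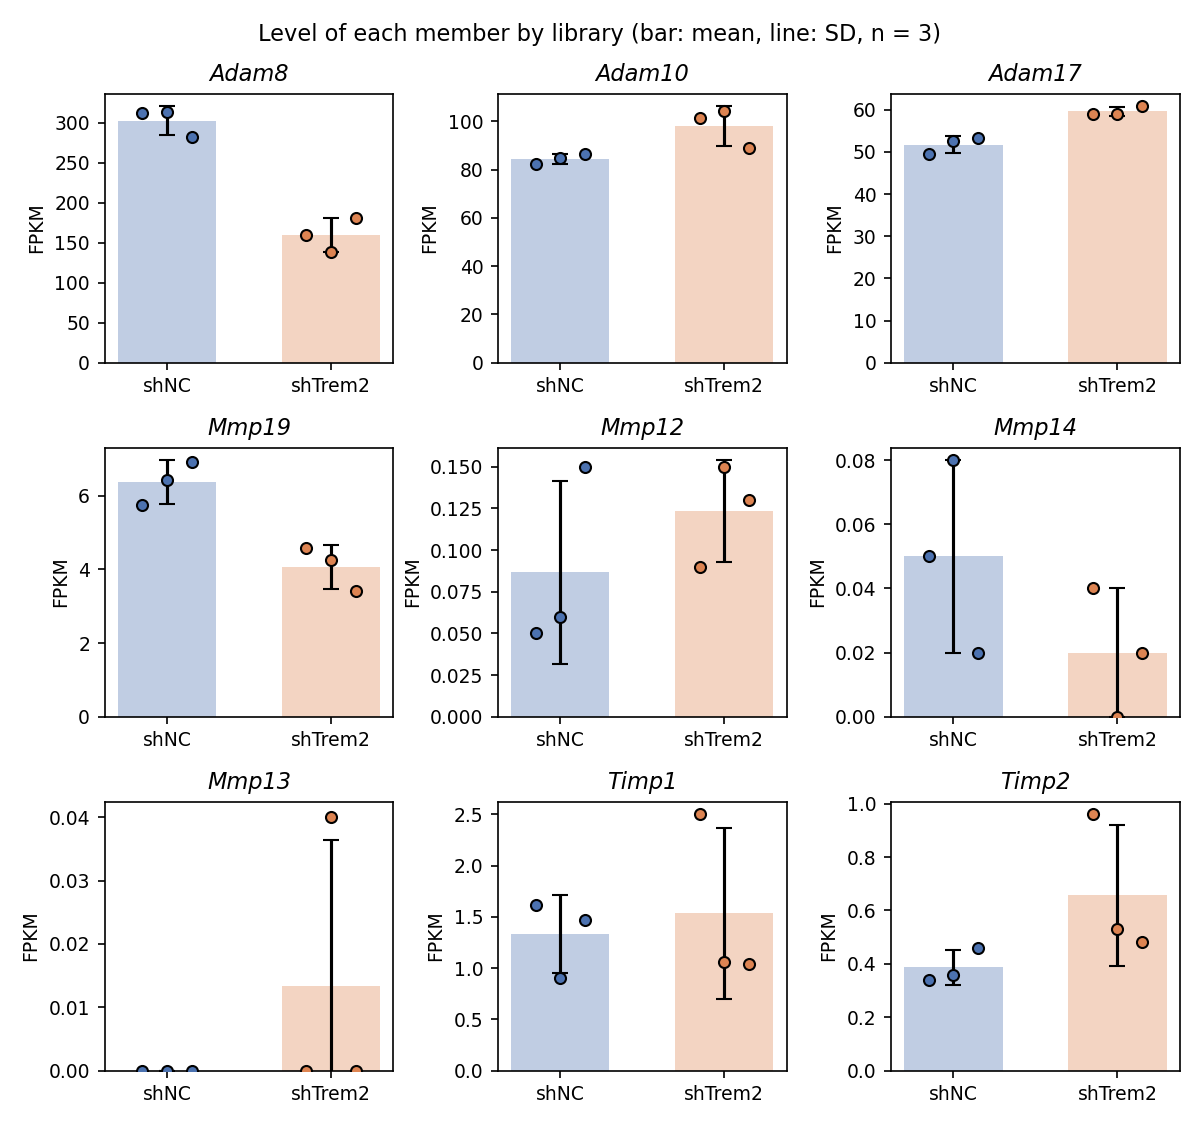
FPKM of each of the 9 genes in the 3 shNC and 3 shTrem2 libraries, each panel on its own linear axis from 0. Points are libraries, bars are means and lines are SD. Adam8 and Mmp19 lie lower in every shTrem2 library, Adam10, Adam17 and Timp2 lie higher, and Mmp12, Mmp13 and Mmp14 stay at or under 0.15 FPKM.

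Knockdown of Trem2 came with less Adam8 and Mmp19 RNA, slightly more Adam10 and Adam17 RNA, and a rise of Timp2 at a level of at most 39 counts per library. Differentially expressed genes (DEGs) are those with an adjusted p (FDR) under 0.05 and a fold change over 1.5. Of the 9 genes, 6 had enough counts to be tested, and 3 of these were DEGs. Across all 13528 genes tested, 21.8% were DEGs, 9.46% higher and 12.4% lower in shTrem2. Adam8 and Mmp19 were lower and Timp2 was higher, but the Timp2 call was lost under 11 of 18 alternative settings. At an FDR under 0.05 with no fold threshold, 5 of the 6 passed, beside 57.4% of all genes tested, and 5 of the 6 did not overlap between groups in CPM, beside 63.5%. The median log2 fold change of the 6 was 0.22, and that of all genes tested was -2.84e-05.

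**Figure D2:**
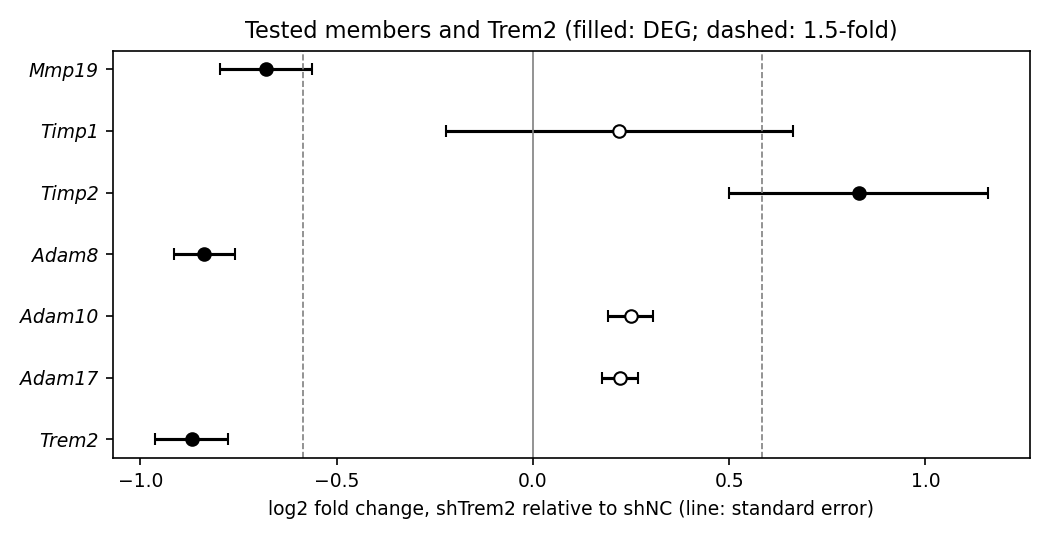
Log2 fold change of the 6 tested genes and of Trem2 in shTrem2 relative to shNC, with standard errors from edgeR. Filled points are DEGs and dashed lines mark a 1.5-fold change. Adam8, Mmp19 and Trem2 lie beyond the lower line, Timp2 beyond the upper one with a wide error of 0.33, and Adam10 and Adam17 lie close together at 0.25 and 0.22.

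Adam10 and Adam17, which encode the TREM2 sheddases, were both modestly higher in shTrem2. Adam10 was at 352, 362 and 368 CPM in shNC and at 434, 443 and 378 CPM in shTrem2. The lowest shTrem2 library lay just above the highest shNC library, and the other two shTrem2 libraries lay farther above. The log2 fold change was 0.25 (SE 0.057, adjusted p = 0.00210, edgeR's quasi-likelihood test), which is 1.19-fold and short of the DEG criterion. Adam17, which also releases tumour necrosis factor from the cell surface, was at 200, 213 and 216 CPM in shNC and at 239, 236 and 242 CPM in shTrem2. The shTrem2 libraries were close together and all above the shNC libraries. Its log2 fold change was 0.22 (SE 0.046, adjusted p = 0.00102, edgeR's quasi-likelihood test), or 1.17-fold. The ratio of Adam10 to Adam17 in FPKM was 1.67, 1.61 and 1.63 in shNC and 1.72, 1.77 and 1.46 in shTrem2, so the groups overlapped in this ratio. The full-length protein-coding transcript Adam10-201 held 99.8% of the Adam10 counts in shNC and 99.9% in shTrem2. Adam17-201 held 92.0% of the Adam17 counts in both groups, although in 1 shTrem2 library the share was 88.1%. The assignment of the Adam17 rows was not unique, since the best order missed the FPKM by 0.00704% and the next by 0.00791%, both within the rounding of the FPKM values (0.0101%).

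Adam8 encodes a protease of myeloid cells that cuts adhesion molecules and other surface proteins, and it was the member with the highest level. Summed over all transcripts it also had the largest fall of the tested members, but on protein-coding transcripts alone its log2 fold change of -0.51 was smaller than that of Mmp19 (-0.68). It was at 764, 787 and 708 CPM in shNC and at 410, 357 and 469 CPM in shTrem2. Every shTrem2 library lay far below every shNC library, and the spread within shTrem2 was wider. The means were 753 ± 40.5 and 412 ± 55.9 CPM (SD, n = 3), a log2 fold change of -0.84 (SE 0.078, adjusted p = 8.16e-07, edgeR's quasi-likelihood test), which is 1.79-fold. The ratio of Adam8 to Adam10 in FPKM was 3.79, 3.69 and 3.26 in shNC and 1.57, 1.33 and 2.03 in shTrem2. The share of Adam10 and Adam17 in the summed FPKM of the 9 genes was 30.5% in shNC and 48.8% in shTrem2, with ranges of 29.2% to 32.4% and 44.7% to 53.0%. Their sum itself was 136 ± 4.02 FPKM in shNC and 158 ± 7.13 in shTrem2 (SD, n = 3). Adam8, which is part of the total with all its transcripts, retained-intron ones included, was at 302 and 159 FPKM.

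The fall of Adam8 was unevenly divided among its transcripts. The deposited count rows carry only gene symbols, and they were assigned to the annotated transcripts of GENCODE M21 by rebuilding the gene's FPKM from row counts and transcript lengths. For Adam8 the chosen order missed the deposited FPKM by at most 0.00394% in any library, and the next best of 40320 orders by 0.156%. The gene lies on the minus strand of chromosome 7, and Adam8-201, with 24 exons, spans chr7:139978932-139992548 in GRCm38. The authors' files were made on GRCm39, so these coordinates belong to the annotation and not to the files. Adam8-203 and Adam8-207 are annotated as retained-intron transcripts. Both keep intron 12, of 291 nt (chr7:139987269-139987559), Adam8-203 also keeps intron 15 (264 nt) and Adam8-207 intron 18 (493 nt). The junctions below separate the spliced form from the form with intron 12. They are shown because the transcripts that fell most share this intron, and each reads 5′ to 3′ on the minus strand of GRCm38 with intron bases in capitals. The spliced junction joins 30 bases on either side, between chr7:139987239-139987589.
Adam8-201 spliced exon 12 to exon 13: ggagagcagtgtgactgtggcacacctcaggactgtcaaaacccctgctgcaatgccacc
Adam8-203 exon 12 into intron 12: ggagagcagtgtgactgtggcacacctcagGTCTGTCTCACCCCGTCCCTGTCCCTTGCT
Adam8-203 intron 12 into exon 13: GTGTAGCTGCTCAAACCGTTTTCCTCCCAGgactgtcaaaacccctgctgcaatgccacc

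The protein-coding transcripts Adam8-201 and Adam8-202 differ in their first exon's start and in 3 extra bases at the start of exon 2 of Adam8-202, shown in capitals across the junction of exon 1 and exon 2.
Adam8-201 exon 1 to exon 2: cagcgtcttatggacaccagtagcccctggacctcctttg
Adam8-202 exon 1 to exon 2: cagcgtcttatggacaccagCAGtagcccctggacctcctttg

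**Figure D3:**
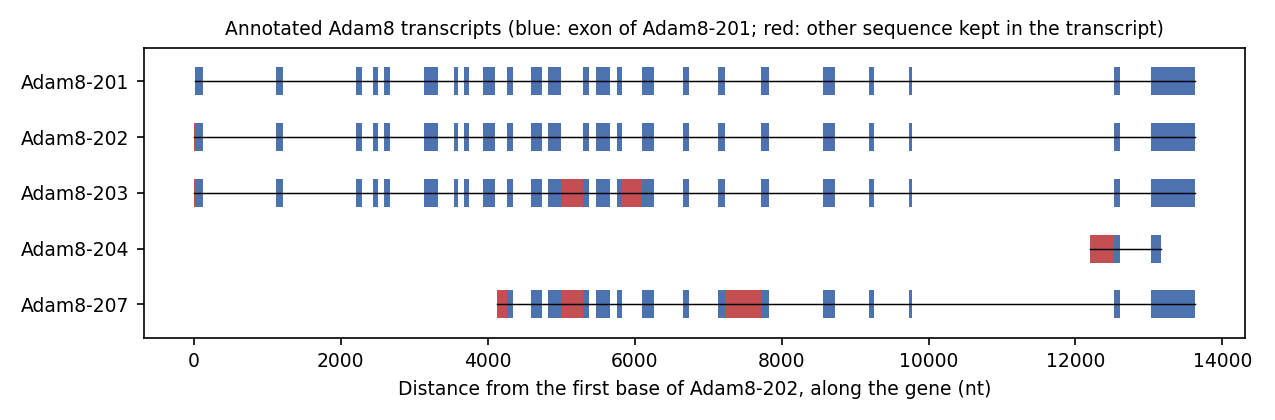
The 5 Adam8 transcripts with more than 20 counts in a library, drawn to scale along the gene in nucleotides from the first base of Adam8-202. Blue boxes are sequence of the 24 exons of Adam8-201 and red boxes are other sequence kept in a transcript. Adam8-203 and Adam8-207 share the red box at intron 12, which is 291 nt long.

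Adam8-201 was at 371, 382 and 352 CPM in shNC and at 239, 217 and 279 CPM in shTrem2. Adam8-202 was at 150, 168 and 153 CPM in shNC and at 120, 90.1 and 132 CPM in shTrem2. Both protein-coding transcripts were lower in every shTrem2 library, with log2 ratios of the means of -0.59 and -0.46. Adam8-207 was at 152, 141 and 121 CPM in shNC and at 19.9, 20.5 and 33.4 CPM in shTrem2. Adam8-203 was at 80.9, 86.5 and 74.5 CPM in shNC and at 27.8, 25.7 and 21.1 CPM in shTrem2. These retained-intron transcripts lay several times lower in every shTrem2 library, with log2 ratios of -2.49 and -1.70. Adam8-204, a short retained-intron transcript of 2 exons at the end of the gene, went from 9.21 ± 1.16 to 3.22 ± 0.457 CPM (SD, n = 3), also without overlap.

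**Figure D4:**
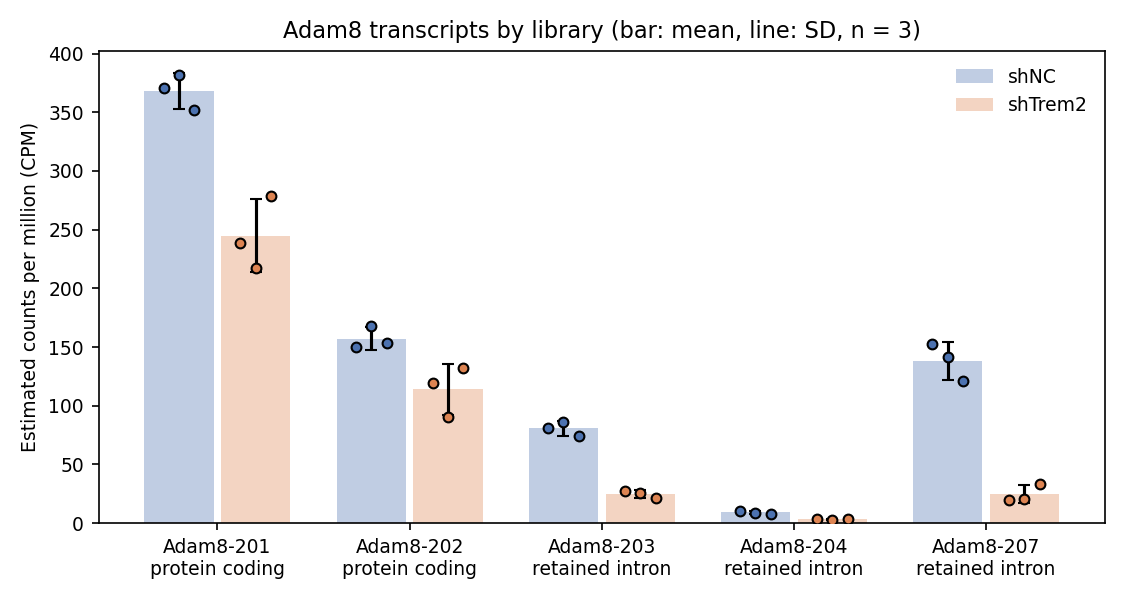
Estimated CPM of 5 Adam8 transcripts in the 3 shNC and 3 shTrem2 libraries, on a linear axis from 0. Points are libraries, bars are means and lines are SD. The protein-coding transcripts lie lower in shTrem2 by a smaller factor than Adam8-203, Adam8-204 and Adam8-207, none of which overlap between groups.

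Summed over transcripts, protein-coding Adam8 went from 525 ± 23.1 to 359 ± 51.5 CPM and the other transcripts from 228 ± 21.4 to 52.7 ± 4.50 CPM (SD, n = 3). The protein-coding share was 68.1%, 69.9% and 71.3% in shNC and 87.5%, 86.3% and 87.7% in shTrem2. All shTrem2 shares were above all shNC shares, and the two-sided exact permutation test gave p = 0.1, the smallest that 3 against 3 libraries allow. Both sums were then fitted as separate genes among 13529 features, a split chosen after the values were seen. The protein-coding sum had a log2 fold change of -0.51 (SE 0.079, adjusted p = 8.67e-05, edgeR's quasi-likelihood test), which is 1.43-fold and no longer a DEG. The other transcripts had a log2 fold change of -2.08 (SE 0.074, adjusted p = 1.86e-10, edgeR's quasi-likelihood test). For a background, the log2 ratio of retained-intron transcripts minus that of protein-coding transcripts was taken in 1262 other genes. Their rows were assigned by the order that best rebuilt the FPKM, within a set misfit. Unlike for Adam8, it was not checked that the next best order was worse, so some of their transcripts may be swapped. The median of this difference was -0.07, with a 5th percentile of -1.003 and a 95th percentile of 0.89, and Adam8 was at -1.56. Of these genes, 11 (0.872%) were as low as Adam8 or lower. The transcripts share most of their exons, so each count is an estimate that divides shared reads among them, and unspliced precursor RNA cannot be told apart from a retained intron.

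Mmp19, a secreted metalloproteinase that cuts basement membrane components, was the only MMP member with counts high enough to test. It was at 15.7, 18.1 and 19.5 CPM in shNC and at 11.8, 11.4 and 9.46 CPM in shTrem2. The groups did not overlap. The log2 fold change was -0.68 (SE 0.118, adjusted p = 2.31e-04, edgeR's quasi-likelihood test), which is 1.60-fold and only just past the DEG criterion. Both of its measured transcripts are protein-coding. Mmp19-201, the longer one of 3402 nt, went from 14.5 ± 1.97 to 7.89 ± 0.359 CPM (SD, n = 3) without overlap, and Mmp19-203, of 2236 nt, was at 3.34 ± 0.135 and 2.97 ± 1.11 CPM with overlapping libraries.

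The other MMP members gave almost no reads. Mmp12, the macrophage metalloelastase, had 3, 5 and 12 counts in shNC and 5, 12 and 7 counts in shTrem2. The groups overlapped and the gene was too low to be tested. Mmp13, a collagenase, had no count in shNC and 0, 2 and 0 counts in shTrem2. Mmp14, the membrane-bound collagenase that also activates MMP2, had 2, 3 and 1 counts in shNC and 1, 0 and 1 counts in shTrem2. Mmp13 and Mmp14 never rose above 3 counts in a library and were not detected at this depth, so no fold change is given.

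Both inhibitors were near the lower limit of the test. Timp2 had 15, 12 and 27 counts in shNC and 39, 35 and 32 counts in shTrem2, or 0.945, 0.675 and 1.49 CPM and 2.00, 1.81 and 1.63 CPM. All shTrem2 libraries were above all shNC libraries, and shNC replicate 3 came close to them. The log2 fold change was 0.83 (SE 0.33, adjusted p = 0.0447, edgeR's quasi-likelihood test). This call was lost under 11 of 18 alternatives. With 1 library left out it held only without shNC replicate 3 (log2 fold change 1.20, adjusted p = 0.0138). The adjusted p was 0.120 without shNC replicate 1, 0.179 without shNC replicate 2, 0.129 without shTrem2 replicate 1, 0.0866 without shTrem2 replicate 2 and 0.0602 without shTrem2 replicate 3 (edgeR's quasi-likelihood test). Timp1, which is strongly induced in many injured tissues, had 14, 9 and 15 counts in shNC and 27, 11 and 11 counts in shTrem2. The groups overlapped, and only shTrem2 replicate 1 stood above shNC. Its log2 fold change was 0.22 (SE 0.44, adjusted p = 0.694, edgeR's quasi-likelihood test), and -0.35 without that library.

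The promoter sequences of RefSeq (GRCm38.p6) held 8 of the 9 genes. The 250 bases before each start were searched on both strands for TGANTCA and for a STAT6-type motif, TTC and GAA with 4 bases between them. TGANTCA is a loose form of the AP-1 site TGAGTCA or TGACTCA that allows any base in the middle. The first was found before the start in 6.75% and the second in 5.85% of 32851 promoters. TGANTCA was found for Mmp13 and for 1 of 2 starts of Mmp12, and for Trem2. The match of Trem2 was TGAATCA, which only the loose form allows. Neither motif was found in these bases of Adam8, Adam10, Adam17, Timp1, Timp2 or Mmp14. The matches begin 35 bases before the start of Mmp13 and 44 bases before that of Mmp12. Windows of 60 bases around them are shown, since these are the members whose promoters carry the motif while their RNA was at or near the floor in both groups. They read 5′ to 3′ on the plus strand, at chr9:7272453-7272512 and chr9:7347304-7347363 of GRCm38.p6, with the match in capitals. A match is a description of letters and not a measured binding site.
Mmp13: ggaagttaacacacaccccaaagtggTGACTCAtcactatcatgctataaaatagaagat
Mmp12: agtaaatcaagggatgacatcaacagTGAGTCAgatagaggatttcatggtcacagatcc

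Genes that act with or beside these proteases were read from lists of 97 further genes, of which 46 stayed at or under 3 counts in every library and 48 were tested. Of the tested genes 16 were DEGs, 6 higher and 10 lower, beside 9.46% and 12.4% of all genes tested, and the median log2 fold change was 0.05. Among all 23 MMP genes, the 4 above included, 17 were at or under 3 counts in every library. Mmp23 was lower, from 1.62 ± 0.355 to 0.342 ± 0.157 CPM (SD, n = 3), with a log2 fold change of -2.19 (adjusted p = 3.81e-04, edgeR's quasi-likelihood test). Mmp9, the gelatinase of many macrophages, was at 0.744 and 1.20 CPM (log2 fold change 0.70, adjusted p = 0.113, edgeR's quasi-likelihood test). The inhibitors Timp3 and Timp4 had no count in any library. None of the 4 other ADAM genes tested was a DEG. Adam15 and Adam9 were slightly lower, with log2 fold changes of -0.28 (adjusted p = 6.26e-05) and -0.13 (adjusted p = 0.0255) by edgeR's quasi-likelihood test. Of 6 ADAMTS genes tested, which encode secreted relatives, Adamts1 was higher (log2 fold change 0.95) and Adamts6 and Adamts14 were lower (-1.60 and -1.74). Adamts6 and Adamts14 averaged under 1.3 CPM in both groups and are named only to complete the count. Adamts1 was also low, at 0.898 ± 0.230 and 1.69 ± 0.169 CPM (SD, n = 3), and in FPKM its groups overlapped. Adamts10 had a far higher level, at 58.5 and 38.8 CPM. Its log2 fold change was -0.56 (adjusted p = 7.91e-06, edgeR's quasi-likelihood test), short of the fold criterion.

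Of 9 tested genes for the maturation and traffic of ADAM10 and ADAM17, 2 were DEGs and both were lower, beside 12.4% of all genes tested. Rhbdf2 encodes iRhom2, which carries ADAM17 to the cell surface. It was at 127, 135 and 124 CPM in shNC and at 73.6, 77.2 and 74.8 CPM in shTrem2, without overlap and with a log2 fold change of -0.74 (SE 0.051, adjusted p = 5.06e-08, edgeR's quasi-likelihood test). Its relative Rhbdf1 went from 18.1 ± 1.81 to 10.8 ± 0.344 CPM (SD, n = 3), a log2 fold change of -0.71. Furin, which removes the prodomain of ADAM proteases, had a log2 fold change of -0.39 (adjusted p = 3.31e-05, edgeR's quasi-likelihood test), and Tspan14, a tetraspanin that brings ADAM10 out of the endoplasmic reticulum, one of 0.33 (adjusted p = 7.51e-04, edgeR's quasi-likelihood test). Neither met the fold criterion. Among the gamma-secretase genes, Psen2 was at 20.0, 20.4 and 18.1 CPM in shNC and at 29.5, 28.9 and 29.4 CPM in shTrem2. The groups did not overlap, and it was a DEG with a log2 fold change of 0.62 (SE 0.075, adjusted p = 9.19e-06, edgeR's quasi-likelihood test). Ncstn, the subunit that receives the substrate, had a log2 fold change of 0.41 (adjusted p = 2.97e-05, edgeR's quasi-likelihood test) and was not a DEG.

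The plasminogen system was read beside the proteases because plasmin can activate MMP proenzymes. Plau, the urokinase gene, was at 232, 248 and 244 CPM in shNC and at 36.4, 35.6 and 46.8 CPM in shTrem2. The groups lay far apart, with a log2 fold change of -2.57 (SE 0.083, adjusted p = 9.05e-11, edgeR's quasi-likelihood test). S100a10, a plasminogen receptor subunit, was higher (log2 fold change 0.63), and the receptor of urokinase, Plaur, had a log2 fold change of -0.10 (adjusted p = 0.432, edgeR's quasi-likelihood test).

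Other substrates of ADAM10 or ADAM17 were divided as well. Of 12 tested, 2 were DEGs higher and 2 lower, beside the same 9.46% and 12.4% of all genes. Tnf, whose product ADAM17 releases, was at 342, 334 and 297 CPM in shNC and at 158, 134 and 161 CPM in shTrem2, without overlap, and had a log2 fold change of -1.07 (SE 0.069, adjusted p = 2.88e-08, edgeR's quasi-likelihood test). Icam1, an adhesion molecule, had a log2 fold change of -0.70. The receptor genes Csf1r and Tnfrsf1a were higher, with log2 fold changes of 0.76 and 0.62. Csf1r is also 1 of the 9 macrophage markers, of which 3 were DEGs higher and 1 was a DEG lower.

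**Figure D5:**
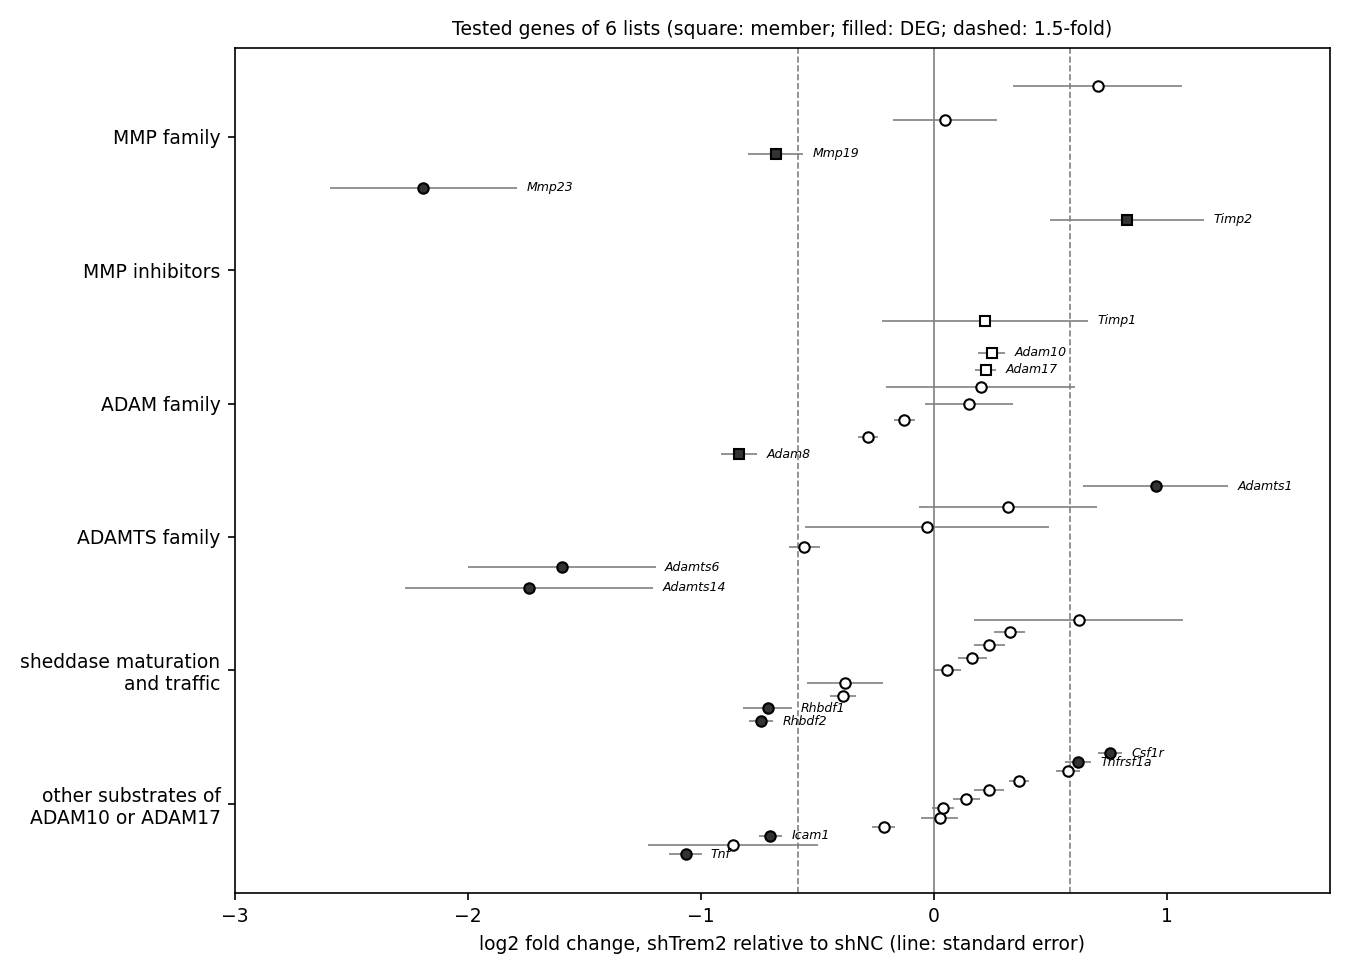
Log2 fold change in shTrem2 relative to shNC, with standard errors from edgeR, of the tested genes in 6 of the lists, the gamma-secretase and plasminogen lists being left out. Squares are the 6 tested members, filled symbols are DEGs and dashed lines mark a 1.5-fold change. Mmp23 lies farthest to the left, at -2.19, and Adamts1 farthest to the right, at 0.95. Neither had more than 35 counts in a library.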

How the data were processed

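RNA-seq libraries of 3 shNC and 3 shTrem2 samples were grouped by the hairpin named in their labels. The members and gene lists were chosen with earlier results of these data known. Reads had been trimmed (fastp), aligned (HISAT2) and assembled into transcripts (StringTie) by the authors, and the submitters' processing notes name the build GRCm39. Versions, the counting tool and the annotation release are not given in the sources used here. The authors deposited estimated counts per transcript row (79.3% of those above 0 were fractional) and FPKM per gene. Their group means were not used.

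Counts were summed per symbol and rounded. Rows without a symbol (0.908% to 1.12% of counts) were left out. Genes were tested with edgeR 4.0.16 in R 4.3.3 (TMM, filterByExpr, glmQLFit and glmQLFTest) without covariates, over 13528 genes. Replicates differed beyond sampling noise. The test recovered 99% of 100 genes changed by 1 on the log2 scale in data simulated for this comparison over 13363 genes. The simulation gave every gene the same relative spread between replicates, 0.06, beyond counting error. It therefore does not give the recovery for genes that vary more. The naming rule covered all members, Trem2, and up to 4 DEGs per list with the largest change, no overlap and a mean log2 CPM of at least 0. Other genes are named outside this rule, with no fixed criterion. Among them are Mmp9, Adam9, Adam15, Adamts6, Adamts10, Adamts14, Furin, Tspan14, Ncstn, Plaur and the marker genes. No genes with a similar pattern were ranked, because the 6 libraries form only 2 groups. Retained-intron and protein-coding transcripts were compared on CPM with a pseudocount of 0.1, in genes with at most 8 transcripts and a mean of at least 20 counts of each kind. Alternatives were DESeq2 1.42.0, limma 3.58.1 (voom, and trend on FPKM), other normalizations, filters and thresholds, a replicate block and each library left out. Protein-coding transcripts only and an effective-length offset were added after seeing the data. Some genes that the naming rule covers are not reported here.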

Additional observations from a re-analysis of the deposited data

How the results depend on the processing

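The number of members called (3) was 1 with limma-trend on log2(FPKM + 1), 0 with a fold change over 2, 5 with no fold threshold and 1 with glmTreat against 1.5-fold, and between 2 and 3 with each library left out. The DEGs among all genes (2951) were 1339 with a fold change over 2, 7763 with no fold threshold and 1515 with glmTreat, and between 2789 and 3105 with each library left out. The same settings gave 7, 30 and 9 of the wider list genes in place of 16, and 14 to 17 with each library left out. Trem2, Adam10 and Adam17 kept their direction and side of the threshold under 18 alternatives, with ranges of -2.08 to -0.77, 0.21 to 0.31 and 0.18 to 0.25 on the log2 scale. Adam8 lost its call in 1 of 18, on protein-coding transcripts only (-0.51, an alternative chosen after seeing the data), where the fold was under 1.5. Mmp19 lost its call in 1 of 18, on log2(FPKM + 1) (-0.54), a scale that understates low genes. Timp2 lost it in 11 of 18, among them DESeq2 (adjusted p = 0.0729) and library size only (adjusted p = 0.0525), with a range of 0.0138 to 0.179, and the cause was not tested. Timp1 reversed without shNC replicate 2 (-0.0042) and without shTrem2 replicate 1 (-0.35), and with each library left out it ranged up to 0.44.

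Same-numbered libraries did not deviate together (correlations of 0.0062, -0.0044 and 0.0066), and not every library correlated best with its own number. No sign of pairing by number was seen, but whether same-numbered samples were handled together is not known. With the replicate number as a block there were 2911 DEGs, 2 members called and 17 wider list genes, Timp2 had an adjusted p of 0.0568 by edgeR's quasi-likelihood test. Depth limits Mmp12, Mmp13, Mmp14, Timp1 and Timp2, each with under 40 counts in every library.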
